A study of Mus musculus with 4 samples.

Results

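The genes described here build the contractile apparatus of skeletal muscle, couple its membrane to calcium release, or act when myoblasts fuse and myofibres repair their membrane. They are a list of 55 genes, and each was read from a probe set whose array annotation gave its symbol and no other. Where a gene had several such probe sets, the one with the highest mean over all 4 arrays was taken, which concerned Jph1 and Trdn. All 55 were measured, of 19938 genes on 21789 probe sets tested. By role, 19 belong to the thick filament and its assembly, 13 to the thin filament, 10 to the Z disc, 7 to calcium handling, 2 to energy and oxygen supply, and 4 to fusion and the membrane.

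The cells were mesoangioblasts of the adult mouse (AdmMABs), progenitors of the vessel wall with the capacity to make muscle, taken from the tibialis anterior of adult male mice of the strain C57/BL6. Both groups were polyclonal populations that had been transduced with a lentiviral vector and were harvested while proliferating in medium with fetal bovine serum. The Ctl group carried a control short hairpin RNA (n = 2 arrays), and the shPW1 group carried a short hairpin RNA against PW1, the protein encoded by the imprinted gene Peg3 (n = 2 arrays). Per the methods, the arrays of a group are RNA extractions of 1 cell population, so each p-value reflects the spread of repeated extractions and may be technical. PW1 was targeted by 1 hairpin in a pLV-H1 plasmid. The control hairpin that the methods name sits in another backbone, pLKO.1, and they do not state that the arrays used it, so any difference of vector cannot be told apart from the loss of PW1. The log2 level of Peg3 itself averaged 8.69 ± 0.02 in Ctl against 6.35 ± 0.18 in shPW1 (SD, n = 2 each). All levels below are log2 expression values after robust multi-array averaging (RMA) by the authors, and all differences are log2 fold changes of shPW1 over Ctl.

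In striated muscle, myosin thick filaments slide along actin thin filaments that are anchored in the Z disc. Troponin and tropomyosin on the thin filament free the binding sites for myosin when calcium leaves the sarcoplasmic reticulum, a release triggered by the voltage sensor of the surface membrane. Myoblasts switch most of these genes on as they leave the cell cycle, under the control of MyoD, myogenin and the Mef2 factors. Some members, such as Tpm1, Tpm2 and Myof, are also transcribed in many cells that are not muscle.

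Of the 55 genes, 6 fell in shPW1 AdmMABs, 1 rose and 48 did not pass the test. The genes that fell were Mymk, which encodes the fusion protein myomaker, Actn3 and Des of the Z disc, Actc1 of the thin filament, Dysf of the membrane repair machinery and Myl4 of the thick filament. The gene that rose was Jph1, which encodes junctophilin 1, a protein that holds the sarcoplasmic reticulum close to the transverse tubule. A gene was called at an adjusted p under 0.05 from limma, with Benjamini-Hochberg adjustment across the whole set of 21789. The genes called lower are 10.9% of the members, against 4.17% of all probe sets tested, and the gene called higher is 1.82% of them, against 4.93%. When the median of each array was subtracted, 5 members were lower and 2 were higher, against 3.2% and 7.51% of all probe sets.

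With any 1 array left out, limma called 0 of the 55 members and 0.0% of all probe sets tested, so that design could call nothing and does not bear on these calls. The log2 fold changes of the called members kept their sign there and moved unequally. They ran from -0.61 to -0.56 for Actn3 and from 0.41 to 0.45 for Jph1. The ranges were wider for Mymk (-0.74 to -0.58) and Actc1 (-0.58 to -0.40). Between 4 and 8 of all members changed sign. When every row of the deposited table was tested, limma called 0 members, and of all rows 0.141% were lower and 0.101% higher. At an unadjusted p under 0.05, 15 members lay lower and 3 higher there. The share of all rows at that threshold was not taken, so these counts cannot be set against it. The methods' t-test, read at its own threshold of an unadjusted p under 0.05 with over 1.2-fold change, called 7 members lower, including all 6 that fell in limma, and Jph1 higher, against 5.35% and 6.35% of all probe sets.

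**Figure D1:**
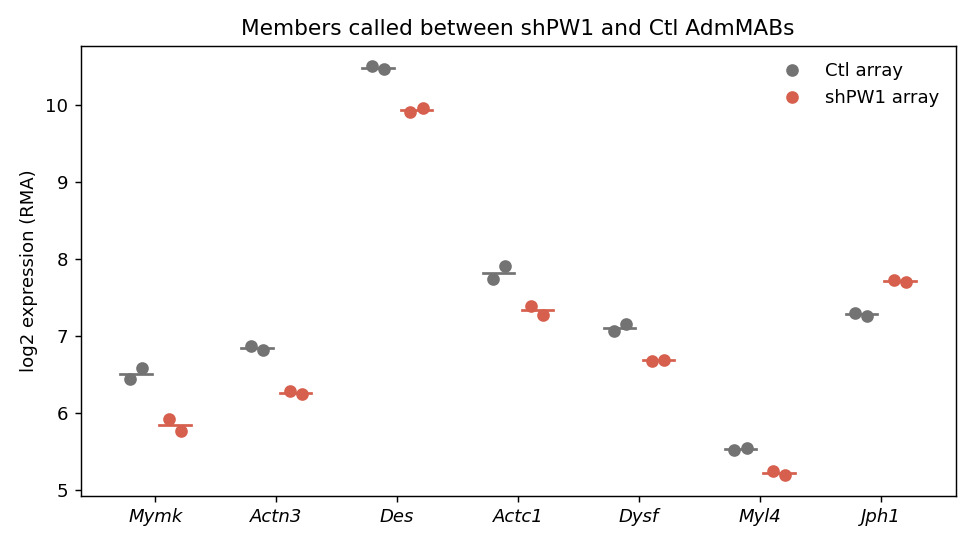
Log2 expression (vertical axis) of the 7 members called between the groups (horizontal axis, ordered by log2 fold change). Points are single arrays, 2 of Ctl (grey) and 2 of shPW1 (red), with group means as short lines; both shPW1 arrays lie below both Ctl arrays for Mymk, Actn3, Des, Actc1, Dysf and Myl4, and above them for Jph1.

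Most members had small differences on the lower side. The median log2 fold change of the 55 members was -0.15, against -0.01 over all probe sets tested, and the members ran from -0.66 (Mymk) to 0.43 (Jph1). The log2 fold change was below 0 in 40 members, or 72.7% of them, against 52.4% of all probe sets. In 31 members (56.4%) both shPW1 arrays lay below both Ctl arrays, against 28.0% of all probe sets. In 4 members (7.27%) both shPW1 arrays lay above both Ctl arrays, against 27.5% of all probe sets, and these were Jph1, Tpm1, Tpm2 and Myof. The arrays of the groups overlapped in the other 20 members. The share below 0 and the share with both shPW1 arrays below both Ctl arrays were also high in some marker lists described below. They were 80% and 50% for the endothelial markers and 71.4% and 57.1% for the cardiomyocyte markers. Leukocyte markers had 50% and 30%, and the cytoskeletal genes had 14.3% and 7.14%. A lean to the lower side was thus not particular to the members. With the median of each array subtracted, the median of the members was -0.08 and that of all probe sets 0.05, and 34 members were below 0. In these bulk samples, fewer cells that express a gene and less of its RNA per cell cannot be told apart.

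Sequence before the start of transcription is shown for members that fell, since the members lay mostly on 1 side. RefSeq (build GRCm38.p6) gave promoter windows for 43 of the 55 members, each from 250 bases before a start to 50 bases after it, and 3 are printed from the first base of the window to the base before the start. Capitals mark an E-box hexamer in Des and a CArG box, the site of serum response factor, in Actc1, and the Myl4 window held neither.
Des, chr1:75360042-75360291, plus strand: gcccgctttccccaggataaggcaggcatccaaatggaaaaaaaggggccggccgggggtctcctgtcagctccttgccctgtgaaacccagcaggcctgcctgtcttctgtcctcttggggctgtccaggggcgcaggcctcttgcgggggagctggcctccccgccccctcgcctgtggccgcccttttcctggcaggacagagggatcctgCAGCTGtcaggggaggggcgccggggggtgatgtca
Actc1, chr2:114052876-114053125, minus strand: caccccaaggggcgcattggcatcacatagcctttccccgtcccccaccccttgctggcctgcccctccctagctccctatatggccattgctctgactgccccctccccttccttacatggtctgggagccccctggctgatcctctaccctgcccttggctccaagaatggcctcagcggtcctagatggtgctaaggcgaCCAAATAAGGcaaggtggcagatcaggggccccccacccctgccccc
Myl4, chr11:104550413-104550662, plus strand: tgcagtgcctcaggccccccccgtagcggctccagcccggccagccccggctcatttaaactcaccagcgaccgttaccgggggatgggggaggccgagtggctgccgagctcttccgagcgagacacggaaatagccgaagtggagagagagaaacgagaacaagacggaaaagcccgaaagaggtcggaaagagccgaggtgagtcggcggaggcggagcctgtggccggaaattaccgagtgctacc

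The motifs were searched on both strands in the whole window. The hexamer CAGCTG, a form of the E-box that basic helix-loop-helix factors such as MyoD bind, began 36 bases before the start of Des, and it was present in 22 of 52 member windows (42.3%) against 16.3% of all 32851 windows. The CArG box began 47 bases before the start of Actc1, and it was present in 7 of 52 member windows (13.5%) against 1.63% of all. The Mef2 site was present in 3 of 52 member windows (5.77%) against 0.557% of all. Of the 6 genes that fell, only 4 had a window to search (Des, Actc1, Myl4 and Dysf), while Actn3, Mymk and Jph1 had none. The 22 windows belong to 19 genes, of which only Des was called, and the windows of Dysf held none of the 3 motifs. The windows with a CArG box belong to 6 genes, of which only Actc1 was called. A match is a string of letters and says nothing of whether a factor bound there in these cells.

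Many of the members were dim on these arrays. No detection call was available, so the 1035 probe sets of olfactory receptor genes, which these cells should not use, served as a guide, and 95% of them had a mean log2 level under 4.95. Of the 55 members, 39 lay above that level, as did 67.3% of all probe sets tested, and 16 did not. The 16 comprised 11 members of the thick filament list, 2 of the Z disc, 2 of calcium handling and 1 of the thin filament. All 7 called members lay above the level. So did 6 of 7 cardiomyocyte markers described below, so lying above it does not show that a gene was expressed. For a member near or under it, the size of a difference is uncertain, and a small log2 fold change does not show that the gene was expressed and did not change.

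**Figure D2:**
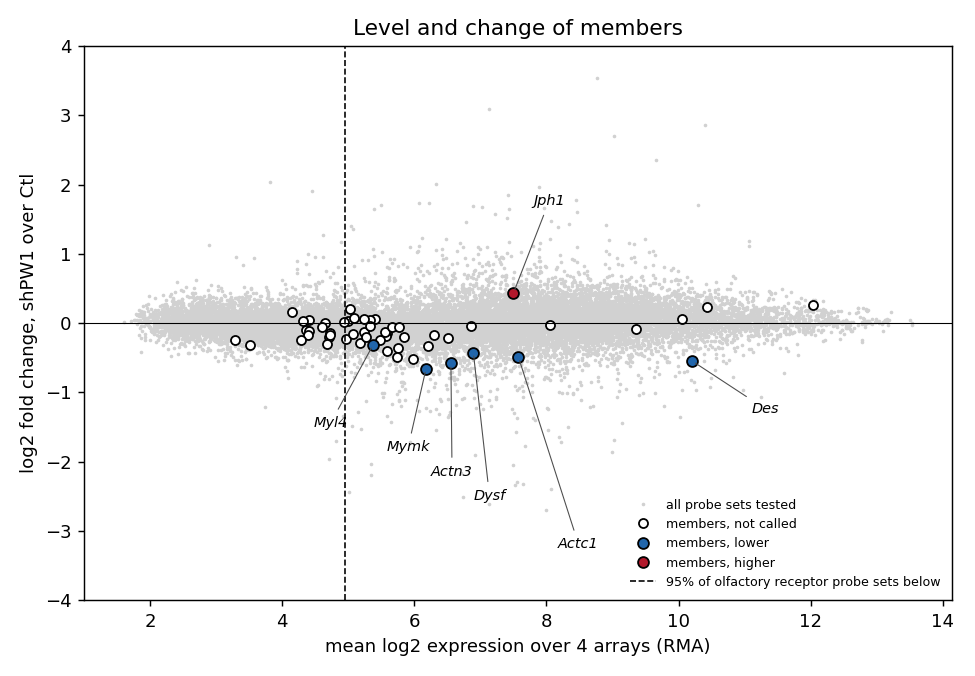
Mean log2 expression over the 4 arrays (horizontal axis) and log2 fold change between the groups, shPW1 over Ctl (vertical axis), for all 21789 probe sets tested (grey) and the 55 members (circles, blue where called lower, red where called higher, open where not called). The dashed line marks a log2 level of 4.95, under which 95% of the olfactory receptor probe sets lie; 16 members lie at or left of it and the 7 called members lie right of it.

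Among the 19 genes of the thick filament and its assembly, 1 fell (5.26%, against 4.17% of all probe sets) and 18 did not pass the test. Myl4 encodes the essential light chain of atrial and embryonic skeletal myosin. Its Ctl arrays read 5.52 and 5.54 and its shPW1 arrays 5.24 and 5.19 on the log2 scale, so the groups did not overlap. Its log2 fold change was -0.31 (95% confidence interval from -0.47 to -0.16, adjusted p = 0.0446 from limma), a 1.24-fold lower level. This was the weakest of the 7 calls, and it was lost when array medians were subtracted (log2 fold change -0.25, adjusted p = 0.0731), on a further quantile normalization (-0.25, adjusted p = 0.0585) and under limma's trended robust prior (adjusted p = 0.0517).

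The other genes of the thick filament had differences that limma did not call. Mybph, which encodes myosin-binding protein H and was the brightest probe set of this role, lay at 5.94 and 5.94 in Ctl and at 5.67 and 5.48 in shPW1. Its log2 fold change of -0.36 (adjusted p = 0.0668) missed the threshold in limma. It passed once dim probe sets were removed (adjusted p = 0.0273) or the robust trended prior was used (adjusted p = 0.0298). It stayed uncalled in 12 other alternatives, among them those with 1 array left out, where nothing could be called. In the settings where it passed, 11.3% of the probe sets left and 9.08% of all probe sets were lower, against 4.17% of all without them. The myosin heavy chains, which are the motors of the filament, ran from -0.22 for the slow form Myh7 and -0.20 for the embryonic form Myh3 to 0.21 for the perinatal form Myh8, with adjusted p values of 0.111, 0.153 and 0.407. The adult fast forms Myh1, Myh2 and Myh4 had mean log2 levels of 4.14 to 4.40, under the guide level. Probes of these closely related heavy chains may share signal. Myl1, a fast essential light chain, was read at 3.21 and 4.13 in Ctl and at 3.38 and 3.33 in shPW1, and its log2 fold change of -0.31 (adjusted p = 0.581) changed sign without Ctl replicate 2. The log2 fold change of the myosin chaperone Unc45b was -0.19 (adjusted p = 0.196), and the methyltransferase Smyd1, which is needed for myosin assembly, lay at -0.31 (adjusted p = 0.104). Titin (Ttn), the elastic protein that spans the sarcomere from Z disc to M band, had -0.17 (adjusted p = 0.155). In 8 of the 19 genes both shPW1 arrays lay below both Ctl arrays (42.1%, against 28.0% of all probe sets), and in 0 they lay above (against 27.5%).

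The thin filament held members on both sides. Of its 13 genes, 1 fell (7.69%, against 4.17% of all probe sets) and 12 did not pass the test, with a median log2 fold change of -0.17. Actc1 encodes cardiac alpha-actin, the sarcomeric actin that embryonic muscle and differentiating myoblasts use before the skeletal form. It was read at log2 levels of 7.73 and 7.91 in Ctl and at 7.39 and 7.27 in shPW1. All shPW1 values were lower, and the log2 fold change was -0.49 (95% confidence interval from -0.73 to -0.25, adjusted p = 0.0432 from limma), or 1.41-fold lower. The call was lost on a further quantile normalization (log2 fold change -0.51, adjusted p = 0.0571). Acta1, the skeletal alpha-actin and a close paralog whose probes may share signal with Actc1, lay at 8.02 and 8.12 in Ctl and at 8.06 and 8.03 in shPW1. Its arrays overlapped, with a log2 fold change of -0.03 and a 95% confidence interval from -0.20 to 0.14.

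The tropomyosins stood on the other side. Tpm1, which encodes the alpha chain that winds along the actin filament and was the brightest probe set of this role, lay at 11.92 and 11.89 in Ctl and at 12.18 and 12.15 in shPW1. Both shPW1 arrays were above both Ctl arrays, and the log2 fold change of 0.26 (95% confidence interval from 0.11 to 0.41) had an adjusted p = 0.061 in limma. It passed once dim probe sets were removed (adjusted p = 0.0207), after subtraction of array medians (log2 fold change 0.33, adjusted p = 0.0384) and under the robust trended prior (adjusted p = 3.5e-05). Tpm1 stayed uncalled in 11 other alternatives, among them those with 1 array left out, where nothing could be called. In the settings where it passed, 13.3% of the probe sets left, and 7.51% and 12.6% of all, were higher, against 4.93% of all without them. Tpm2, the beta chain, lay at 10.33 and 10.32 in Ctl and at 10.51 and 10.59 in shPW1, with a log2 fold change of 0.23 and an adjusted p = 0.0974. It was called higher once dim probe sets were removed and under the robust trended prior. There, 13.3% of the probe sets left and 12.6% of all were higher. Whether these probe sets separate muscle from non-muscle transcripts is not given in the sources used here.

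The troponins, which hold the calcium switch of the thin filament, lay on the lower side without passing the test. Of them, Tnnt3, Tnni1 and Tnnc2 were called lower once dim probe sets were removed, and Tnnt3 and Tnni1 under the robust trended prior. Those settings called 11.3% of the probe sets left and 9.08% of all lower, against 4.17% of all without them. Fast troponin T (Tnnt3) was read at 6.17 and 6.298 in Ctl and at 5.86 and 5.57 in shPW1, and its log2 fold change of -0.52 had an adjusted p = 0.0654. Slow troponin I (Tnni1) was read at 5.96 and 5.99 in Ctl and at 5.64 and 5.33 in shPW1, with a log2 fold change of -0.49 and an adjusted p = 0.0706. Fast troponin C (Tnnc2) had -0.24 (adjusted p = 0.0714). For each of these genes the shPW1 arrays lay below the Ctl arrays, and the spread between the shPW1 arrays was the larger for Tnnt3 and Tnni1. Tnnt2, the cardiac troponin T that young skeletal muscle also uses, had log2 levels of 9.38 and 9.42 in Ctl and of 9.34 and 9.28 in shPW1, with a log2 fold change of -0.09 and a 95% confidence interval from -0.25 to 0.07. Nebulin (Neb), the long ruler of the thin filament, had -0.17 (adjusted p = 0.182), and Klhl41, a protein that stabilizes nebulin, -0.13 (adjusted p = 0.368).

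The Z disc held 2 of the 6 members that fell, or 20% of its 10 genes, against 4.17% of all probe sets. Des encodes desmin, the intermediate filament that links Z discs to each other and to the membrane and that myoblasts already make before they fuse. It was the brightest probe set of this role, read at 10.50 and 10.47 in Ctl and at 9.90 and 9.97 in shPW1. The log2 fold change was -0.55 (95% confidence interval from -0.71 to -0.39, adjusted p = 0.0174 from limma), or 1.46-fold lower. Actn3 encodes the alpha-actinin of fast fibres, which crosslinks actin in the Z disc. It was read at 6.87 and 6.82 in Ctl and at 6.28 and 6.24 in shPW1, a log2 fold change of -0.58 (95% confidence interval from -0.74 to -0.43, adjusted p = 0.0147 from limma). Neither gene had overlapping arrays, and both were called after a further quantile normalization, after subtraction of array medians and under the robust trended prior. With the replicate number as a block, Actn3 was called (adjusted p = 0.046) and Des was not (adjusted p = 0.0552).

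The other 8 genes of the Z disc did not pass the test. Actn2, the alpha-actinin found in all striated fibres, had a log2 fold change of 0.06 (95% confidence interval from -0.23 to 0.34), and its arrays overlapped. Ldb3, which encodes the alpha-actinin partner Cypher, had -0.21 (adjusted p = 0.155), and Myoz2, a calcineurin-binding protein of slow fibres, -0.24 (adjusted p = 0.0952) at a mean log2 level of 3.28. Myoz1, Tcap, Myot, Csrp3 and Xirp1 lay between -0.13 and 0.05.

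**Figure D3:**
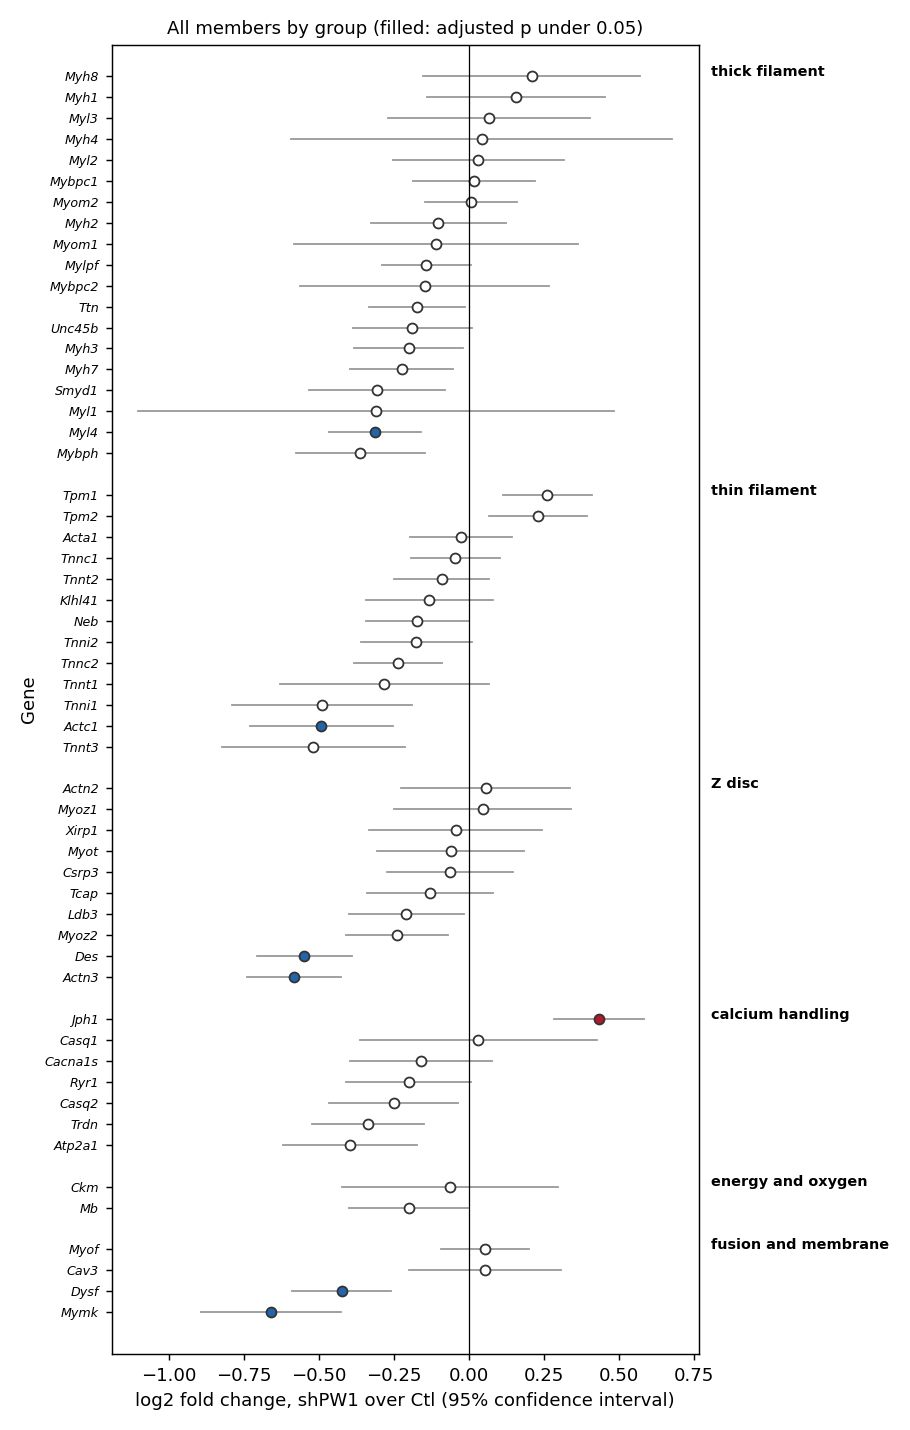
Log2 fold change of shPW1 over Ctl (horizontal axis, circles) with its 95% confidence interval (grey lines) for each of the 55 members (vertical axis), by role and ordered within a role. Blue circles were called lower, the red circle was called higher and open circles did not pass; the Z disc list reaches from Actn3 at -0.58 to Actn2 at 0.06, and Jph1 at 0.43 stands apart from Atp2a1 at -0.40 within calcium handling.

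Calcium handling held the gene that rose, 1 of its 7 genes (14.3%, against 4.93% of all probe sets), and 0 fell. Jph1, the brightest probe set of this role, was read at 7.30 and 7.26 in Ctl and at 7.72 and 7.71 in shPW1. Both shPW1 arrays lay above both Ctl arrays, and the log2 fold change was 0.43 (95% confidence interval from 0.28 to 0.58, adjusted p = 0.0237 from limma), or 1.35-fold higher. A second probe set of Jph1 had a log2 fold change of 0.57 and an adjusted p = 0.0589. Of the other 6 genes, 5 were below 0, which is 71.4% of the 7, against 52.4% of all probe sets. Atp2a1, the calcium pump of fast fibres, lay at 5.75 and 5.83 in Ctl and at 5.49 and 5.30 in shPW1, a log2 fold change of -0.40 with an adjusted p = 0.0598. Trdn, which encodes triadin, an anchor of calsequestrin at the release channel, stood at -0.34 on that scale (adjusted p = 0.0577) by its brightest probe set. Its 19 probe sets disagreed, with 11 below 0 and 8 above and a range from -0.34 to 0.43, and 0 of them were called. Atp2a1 and Trdn were both called lower once dim probe sets were removed and under the robust trended prior. Those settings called 11.3% of the probe sets left and 9.08% of all lower, against 4.17% of all without them. The release channel Ryr1 had -0.20 (adjusted p = 0.19), the voltage sensor Cacna1s -0.16 (adjusted p = 0.334), and the calcium store proteins Casq2 and Casq1 -0.25 (adjusted p = 0.139) and 0.03 (adjusted p = 0.924).

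In the fusion and membrane group, 2 of 4 genes fell (50%, against 4.17% of all probe sets). Mymk encodes myomaker, a membrane protein that myoblasts need to fuse, and it fell furthest of all members. It was read at 6.43 and 6.58 in Ctl and at 5.93 and 5.77 in shPW1, a log2 fold change of -0.66 (95% confidence interval from -0.89 to -0.43, adjusted p = 0.0245 from limma), or 1.58-fold lower. Dysf encodes dysferlin, which reseals the torn membrane of muscle fibres. It was read at 7.06 and 7.15 in Ctl and at 6.67 and 6.69 in shPW1, a log2 fold change of -0.42 (95% confidence interval from -0.59 to -0.26, adjusted p = 0.0297 from limma), or 1.34-fold lower. Neither gene had overlapping arrays. Myof, which encodes the related myoferlin and was the brightest probe set of this role, lay at 10.03 in both Ctl arrays and at 10.08 and 10.09 in shPW1, a log2 fold change of 0.05 with a 95% confidence interval from -0.09 to 0.20. Cav3, the caveolin of muscle, had 0.05 (adjusted p = 0.785). Energy and oxygen supply showed no call, with a log2 fold change of -0.06 for the creatine kinase Ckm (adjusted p = 0.823). Myoglobin (Mb), the brighter probe set of that pair, was read at 5.97 and 5.91 in Ctl and at 5.81 and 5.66 in shPW1, a log2 fold change of -0.20 with an adjusted p = 0.177.

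The families of contractile proteins were also read for their smooth muscle and non-muscle forms. Among the actinins, the non-muscle form Actn1 rose (log2 fold change 0.50, adjusted p = 0.0187 from limma), while Actn3 fell and Actn2 and Actn4 did not pass. Among the light chains, the smooth muscle and non-muscle forms Myl9 (0.41, adjusted p = 0.0305) and Myl6 (0.32, adjusted p = 0.0429) rose. Myl6 had 6 probe sets, and only the brightest was read. Myl12b, a regulatory light chain of non-muscle myosin, was read at 9.92 and 9.93 in Ctl and at 7.89 and 8.25 in shPW1, a log2 fold change of -1.86 (adjusted p = 0.00742 from limma), larger in size than that of any member. Its close paralog Myl12a, whose probes may share signal, had a log2 fold change of 0.03. The cytoplasmic actin Actb and the smooth muscle actins Acta2 and Actg2 lay between 0.05 and 0.16 and did not pass. Of 14 measured cytoskeletal genes on the list, 1 was lower (7.14%, against 4.17% of all probe sets) and 2 were higher (14.3%, against 4.93%). The median log2 fold change of the 14 was 0.07. The differences between the forms of a family were not tested.

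**Figure D4:**
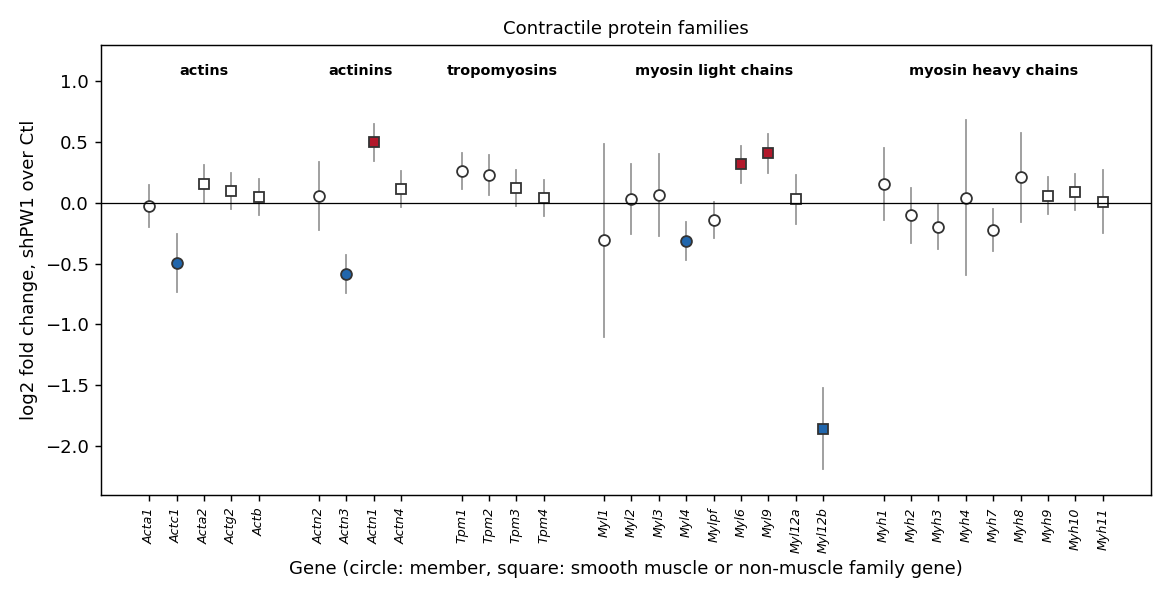
Log2 fold change between the groups, shPW1 over Ctl (vertical axis), with its 95% confidence interval (grey lines) for the members (circles) and the smooth muscle and non-muscle genes (squares) of 5 contractile protein families (horizontal axis). Blue symbols were called lower, red symbols were called higher and open symbols did not pass; Actn3 lies at -0.58 and Actn1 at 0.50, and Myl12b at -1.86 lies far below the other light chains.

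Further genes of the same structures were read from lists. Over all probe sets tested, 4.17% were called lower and 4.93% higher. The shares lower and higher were 5% and 0% of the other filament genes and 0% and 19.0% of the other Z disc genes. They were 11.1% and 0% of the other calcium handling genes and 6.06% and 12.1% of the other fusion genes. Of 20 other filament genes, 1 fell and 0 rose, and it was Trim55, a ubiquitin ligase of the sarcomere (log2 fold change -0.68, adjusted p = 0.0467 from limma), whose mean level was under the guide level. Of 21 other genes of the Z disc and its partners, 0 fell and 4 rose. These were the ubiquitin ligase Fbxo32 (0.79, adjusted p = 0.0192), the titin-binding protein Ankrd1 (0.42, adjusted p = 0.0249), the LIM protein Fhl1 (0.38, adjusted p = 0.0301) and Csrp1, a LIM protein of smooth muscle named after its value was seen (0.37, adjusted p = 0.0313). Of 18 other calcium handling genes, 2 fell and 0 rose. Both encode subunits that accompany the voltage sensor, Cacna2d1 (-0.54, adjusted p = 0.0275) and Cacng1 (-0.49, adjusted p = 0.0324). Cacna2d1 was read from the brighter of its 2 probe sets. Of 33 other fusion genes, 2 fell and 4 rose. Jam2 (-0.85) and Cdh15 (-0.64), adhesion proteins of myoblasts, fell and Cdh2 (0.95) rose, and the other genes that rose, named after their values were seen, were the surface receptor Boc (0.49), the adaptor Crkl (0.47) and the interleukin receptor Il4ra (0.37). Mymx, the partner of Mymk in fusion, was read at 5.85 and 5.95 in Ctl and at 5.85 and 5.59 in shPW1, a log2 fold change of -0.18 with an adjusted p = 0.348.

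The myogenic regulators moved unequally, and their part in the values of the members was not tested. Of 10 measured, 2 fell (20%, against 4.17% of all probe sets) and 1 rose (10%, against 4.93%). Myod1 fell by 1.72 on the log2 scale (adjusted p = 0.00503 from limma). By quantitative PCR, the paper found MyoD transcripts with and without the hairpin against PW1, and they rose during differentiation. It attributes the loss of MyoD to degradation of the protein. The arrays read RNA of growing cells, and the difference from the paper's account was not tested. Myog, which encodes myogenin and comes on as myoblasts differentiate, was read at 6.13 and 6.20 in Ctl and at 5.55 and 5.35 in shPW1, a log2 fold change of -0.71 (adjusted p = 0.0223 from limma). Srf, the factor that binds the CArG box, rose by a log2 fold change of 0.44 (adjusted p = 0.0375 from limma). Mef2a, Mef2c and Mef2d lay between -0.11 and 0.22 and did not pass.

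Markers of the cell types that such cultures could hold were read in the same way. Over all probe sets tested, 4.17% were called lower and 4.93% higher. The shares lower and higher were 23.5% and 11.8% of the pericyte and smooth muscle markers. They were 21.4% and 14.3% of the satellite cell and myoblast markers and 20% and 0% of the fibroblast and fibro-adipogenic markers. Of 17 markers of pericytes and smooth muscle, 15 lay above the guide level, with Rgs5 and Abcc9 under it, 4 fell (Notch3, Cspg4, Pdgfrb and Mcam, by 1.10, 0.66, 0.45 and 0.35 on the log2 scale) and 2 rose (Tagln by 0.44 and Myl9 by 0.41). Their mean log2 level was 8.19 in each Ctl array against 8.14 and 8.10 in shPW1. Of 14 satellite cell and myoblast markers, 3 fell (Myod1, Cdh15 and Des) and 2 rose (Vcam1 by 0.44 and Sdc4 by 0.38), and their mean was 7.92 and 7.89 in Ctl and 7.72 and 7.67 in shPW1. Pax7 and Myf5 of this list did not pass (-0.03 and 0.15). Of 10 fibroblast and fibro-adipogenic markers, Dcn and Pdgfra fell and 0 rose, and their mean was 7.61 and 7.63 in Ctl and 7.39 and 7.37 in shPW1. None of the 10 endothelial, 10 leukocyte or 7 cardiomyocyte markers was called in limma, with list means of 5.02 and 5.05, 4.71 and 4.80, and 5.29 and 5.25 in Ctl and of 4.99 and 4.92, 4.86 and 4.71, and 5.28 and 5.16 in shPW1. Of the other lists, 12 of 14 satellite cell and myoblast markers and 7 of 10 fibroblast markers lay above the guide level. So did 6 of 10 endothelial, 4 of 10 leukocyte and 6 of 7 cardiomyocyte markers, and 67.3% of all probe sets tested. A level above the guide therefore does not show that a marker was expressed. Whether a shift between cell types had a part in the lower values of the members was not tested.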

How the data were processed

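RNA of growing AdmMABs was hybridized to Affymetrix Mouse Gene 1.0 ST arrays, 2 Ctl and 2 shPW1. RMA was run by the authors in Partek, given as version 6.4 by the submitters' notes, and the deposited values are log2 expression of 35556 rows, so background correction, quantile normalization and summarization preceded deposit. Depth has no meaning for arrays, and their number limits the precision.

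Of the rows, 21789 had exactly 1 gene symbol in the array annotation, 1621 had several and 12146 had none, and 21698 matched RefSeq (GRCm38.p6). The groups were compared over the 21789 with limma 3.58.1 (lmFit, eBayes; R 4.3.3; 2 residual and 2.72 prior degrees of freedom), two-sided, with Benjamini-Hochberg adjustment over all of them. The code was tested on simulated data.

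Members, lists, roles and tests were chosen with earlier results of these data known. Array values were printed for every called member and for the member with the brightest probe set in each role, which is no order of abundance. Array values of other genes were chosen after they were seen. Of the other gene lists, counts and up to 3 called genes were taken, by size of change; called genes of the marker lists beyond these were named after their values were seen; the protein families were assembled after the values were seen. Olfactory receptor probe sets set the level of a filter on dim probe sets.

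Same-numbered replicates were not taken as pairs, since the correlation of their deviations was -0.11 and the labels name no shared batch. Alternatives were the dim filter, all rows, a further quantile normalization, subtracted medians, a trended robust prior, the t-test of the methods, a replicate block, each array left out and the mean of all probe sets of a gene.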

Additional observations from a re-analysis of the deposited data

How the results depend on the processing

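The 2 arrays of each group set the limits of these results, and no detection call or signal over background was available. Among the members, 6 were lower and 1 was higher in limma. With dim probe sets left out, 13 were lower and 3 were higher of 39 members tested, against 11.3% and 13.3% of the probe sets left. With a trended robust prior 10 were lower and 3 higher, against 9.08% and 12.6% of all probe sets. Testing all rows gave 0 and 0 (0.141% and 0.101% of all rows), as did the methods' t-test after adjustment (0.00459% of all probe sets each way). The t-test had 12 members lower and 4 higher at an unadjusted p under 0.05, and the share of all probe sets at that threshold was not taken. With any 1 array left out, the counts were 0 lower (from 0 to 0) and 0 higher (from 0 to 0), and 0.0% of all probe sets were called. With 1 array left out, the single array of a group was assumed to vary like the other group. With array medians subtracted, 2 were higher (Jph1 and Tpm1), 5 were lower (7.51% and 3.2% of all probe sets) and the median log2 fold change of the members was -0.083. A further quantile normalization kept 4 of the 6 lower calls (Actn3, Des, Mymk and Dysf) and that of Jph1. The median of the members stayed below 0 in all alternatives tried, and with 1 array left out it ran from -0.20, when shPW1 replicate 1 was omitted, to -0.12, when shPW1 replicate 2 was. With the mean of all probe sets of a gene, the same 6 and 1 were called.

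With the replicate number as a block, 1 member was lower (Actn3) and 0 were higher, against 1.18% and 1.17% of all probe sets. At an unadjusted p under 0.05, 16 members were lower and 3 higher, and the share of all probe sets at that threshold was not taken. The same-numbered arrays deviated against each other (correlation -0.11), so the crossed pairing was added after seeing the data, and gave 1 lower (Mymk) and 0 higher, against 1.03% and 0.978%. The direction of the 7 called members held in all alternatives tried. That of Myof turned on a further quantile normalization (log2 fold change -0.0065), and of the members 4 changed sign there and 6 with array medians subtracted, each with a log2 fold change of at most 0.06 in size. With 1 array left out, 4 to 8 members changed sign, none of them called. The cause of these differences between settings was not tested.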
